A study of Rattus norvegicus with 9 samples.

Results

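The genes described here encode the proteins of the cytosolic ribosome, the particle that translates messenger RNA outside mitochondria. A gene was a member if a probe set annotated to it alone carried an Rpl or Rps symbol followed by a number, or Rplp0, Rplp1, Rplp2 or Rpsa. S6 kinase genes, symbols ending in -ps for pseudogenes, and the mitochondrial Mrpl and Mrps genes were left out. The rule found 48 genes among the 14217 genes with a probe set of their own, 33 of the large subunit and 15 of the small subunit. They were measured by 55 of the 31042 probe sets that were not array controls.

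RNA was measured in dissected cortex from pups of the Hsd:Sprague Dawley SD rat stock whose lineage ate 4-methylimidazole (4-MeI), a small nitrogen heterocycle formed when food browns. The F0 animals were given diets with 0, 750 or 2500 ppm of the compound from before mating, and exposure went on through successive litters and generations. The control group (0 ppm), the 750 ppm group and the 2500 ppm group each held 3 F2b pups, taken on postnatal day 4 with 1 pup per litter and 1 Affymetrix rat genome array, probing the 3′ ends of transcripts, per pup. The series title names maternal seizures as part of the setting, and neither the affected dams nor the sex of the pups is given.

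A ribosome has a large (60S) subunit, which joins amino acids, and a small (40S) subunit, which reads the messenger RNA. Their proteins are needed in largely equal numbers of copies, and their messenger RNAs are among the most abundant of any growing tissue, including the newborn brain, where neurons extend axons and dendrites. Most of these messenger RNAs begin with a run of pyrimidines (C or T), the 5′ terminal oligopyrimidine or TOP motif, through which mTOR signalling and the RNA-binding protein LARP1 control their translation.

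The DNA around the annotated start is shown for the 5 members that lay lowest at 2500 ppm relative to control and for 2 whose difference was near 0, because the pyrimidine run is the sequence feature by which this gene family is known. Each line gives 30 bases on the gene's strand from RefSeq on assembly GRCr8, 15 before the annotated start and 15 from it on, with the longest run of C and T in capitals. Rpl24 lies at chr11:58128391-58128420 on the minus strand, Rpl21 at chr12:13386139-13386168 (minus) and Rpl13a at chr1:104748899-104748928 (minus). Rpl35a lies at chr11:81235007-81235036 (minus) and Rpl14 at chr8:129163605-129163634 (plus). Rps6 lies at chr5:106420526-106420555 (minus) and Rpl41 at chr7:1563483-1563512 (minus).
Rpl24: gaatttagggaggagaTTCTCTaccctata
Rpl21: TTCCTTTCCgccggggcagccatcttccag
Rpl13a: CCTCTTCCTTTCCTaggcggctgccgaaga
Rpl35a: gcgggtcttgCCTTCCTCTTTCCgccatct
Rpl14: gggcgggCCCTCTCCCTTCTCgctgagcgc
Rps6: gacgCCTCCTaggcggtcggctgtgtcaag
Rpl41: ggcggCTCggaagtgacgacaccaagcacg
The longest run was 14 bases in Rpl13a and Rpl14, 13 in Rpl35a, 9 in Rpl21, 6 in Rpl24 and Rps6, and 3 in Rpl41. In Rpl21, Rpl13a, Rps6 and Rpl41 the run ended before the annotated start. An annotated start can differ from the start used in the cortex, so a run, short or long, says only what these 30 bases hold. The genes shown were picked by their differences, and whether run length goes with the difference over the members was not tested.

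RefSeq start regions were found for 41 of the 48 genes, 1 start each. A run of at least 8 pyrimidines on the gene's strand stood in the 30 bases around the start in 23 of the 41 genes (56.1%), against 11.4% of 33469 starts of all genes. The median longest run was 8 bases in the members and 4 over all starts. Runs that lay wholly before the annotated start were counted too, so these are not counts of TOP motifs. In the 300 bases from 250 before to 50 after the start, searched on both strands, the ETS core CCGGAAG was present in 24.4% of the members and 8.75% of all starts. The letters AAGATGGC, bound by YY1-type factors, were present in 9.76% and 3.17%, and the TATA box letters TATAAA in 14.6% and 14.2%. These are matches of letters in a window and were not tested as binding sites.

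Of the 48 genes, 46 were placed on GRCr8 through their Entrez identifier, on 15 chromosomes. The median gene span was 3638.5 bp (range 934 to 16173), against 15497 bp over 23154 protein-coding genes.

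The probe sets of most members were at the top of the intensity range. Values are log2 RMA intensities, so a difference of 1 is a doubling. For each gene the probe set with the highest mean was used. In 38 genes (26 large subunit, 12 small subunit) the mean over the 9 arrays was above 12, from 13.01 for Rps28 to 14.60 for Rps29, with a median of 13.79. These probe sets stood between the 98.6th and the 99.95th percentile of all probe sets. Intensities of different probe sets depend on their probes and give no order of transcript amounts.

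The other 10 genes had probe sets between 4.85 and 10.84. Among them, Rpl3l, Rpl7l1, Rpl26l1, Rpl39l1 and Rps27l are named as paralogs, that is, second gene copies related to a standard ribosomal protein. Rpl28 (7.46), Rpl30 (4.85) and Rps13 (6.50) encode standard components, as does Rpl39 (8.50), and Rps4y2 stood at 7.78. Of these, Rpl28, Rpl30 and Rps13 also lie each on a probe set annotated to several symbols, at 13.38, 13.82 and 13.98. How far the signal of the shared probe sets comes from these 3 genes was not tested. Rpl30, Rpl3l and Rpl39l1 were under the filter on dim probe sets, a mean log2 value of 6.35, which left 45 genes tested, 30 of the large and 15 of the small subunit. The plot of level per gene shows the gap between both sets.

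**Figure D1:**
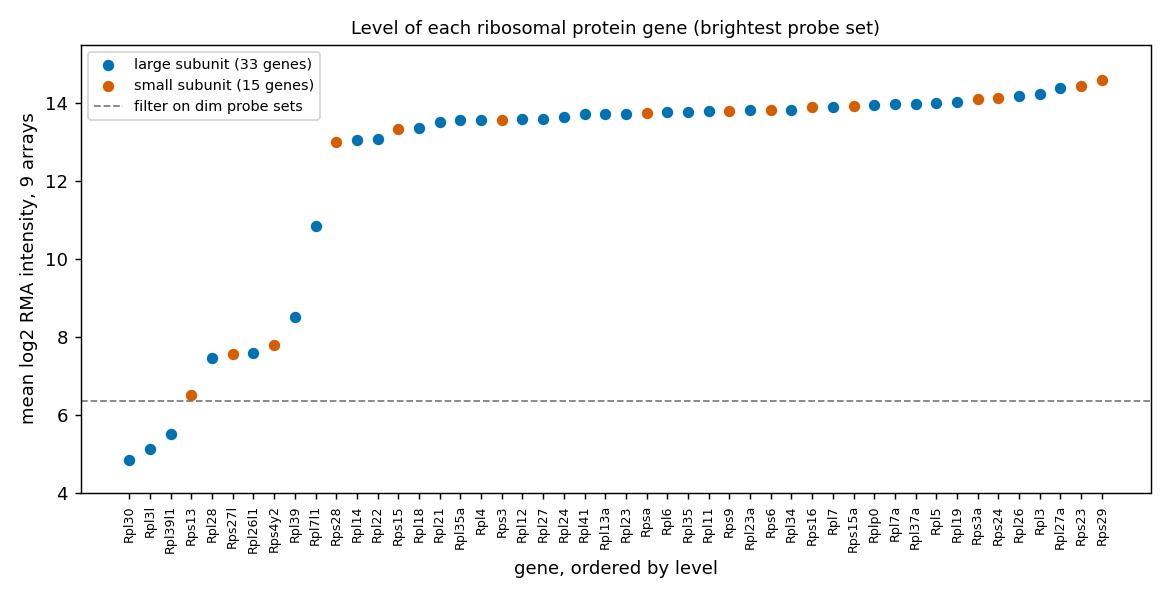
Mean log2 RMA intensity over 9 arrays of the brightest probe set of each of the 48 ribosomal protein genes, ordered by level and coloured by subunit. The dashed line is the filter on dim probe sets at 6.35. The 38 genes on the right lie between 13.01 and 14.60, and the 10 on the left lie between 4.85 and 10.84.

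The 9 arrays had median log2 values between 7.66 and 7.70 and 99th percentiles between 13.24 and 13.28. The signal ratio of 3′ to 5′ probe sets for beta-actin, on the log2 scale, was 0.93 to 1.04 in control, 0.83 to 0.89 at 750 ppm and 0.91 to 1.00 at 2500 ppm. The 750 ppm arrays thus lay below all the others in this sign of RNA quality. The same ratio for GAPDH was -0.056 to 0.054 in control, -0.068 to -0.035 at 750 ppm and -0.037 to 0.015 at 2500 ppm. For hexokinase it was 1.03 to 1.31, 1.23 to 1.49 and 1.25 to 1.32, and in both the groups overlapped. The part of RNA quality in the comparisons with 750 ppm was not tested. The cortical label was checked against neuron markers. Neurod6 lay between 12.78 and 13.56 and Tubb3 between 13.84 and 14.03, while Tbr1 lay between 5.74 and 6.18, under the filter. Emx1 was 8.66 to 8.80 in control, 8.37 to 8.77 at 750 ppm and 9.14 to 9.38 at 2500 ppm. Its 2500 ppm arrays thus lay above all the others. Replicate 3 of the 750 ppm group had a striatal marker mean of 8.43 against 9.69 and 9.75 in the rest of its group, so results at 750 ppm are also given without it.

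At 2500 ppm, the ribosomal protein genes lay a little under control almost throughout, and no single gene passed the test. The log2 difference from control was below 0 in 42 of the 45 tested genes, beside 47.8% of all 21729 probe sets tested. It was above 0 in 3, beside 52.2%. The median difference was -0.055, a change of -3.74% in intensity, and the median over all probe sets was 0.0070. By limma with Benjamini-Hochberg adjustment over the whole array, 0 of the 45 genes passed 0.05, where 0.686% of all probe sets did. At an unadjusted p under 0.05, 1 gene was lower and 0 were higher, beside 9.12% and 6.89% of all probe sets. In bulk tissue, fewer cells of a type and less RNA per cell cannot be told apart.

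In 19 of the 45 genes (42.2%) all 3 arrays of the 2500 ppm group lay below all 3 control arrays, and in 0 genes all 3 lay above. The same held for 13.4% of all probe sets in the lower direction and 9.87% in the higher. Members share their arrays, so these 19 are not 19 separate observations. Leaving out 2500 ppm replicate 2 raised the count to 32 of 45, beside 19.4% of all probe sets. The median difference over the 45 genes ran from -0.078 without 2500 ppm replicate 2 to -0.039 without 2500 ppm replicate 3.

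Rpl24 (Entrez gene 64307), a protein of the large subunit at the bridge to the small one, had the lowest difference. Its control arrays read 13.69, 13.69 and 13.72, the 750 ppm arrays 13.67, 13.68 and 13.61, and the 2500 ppm arrays 13.58, 13.64 and 13.48. Both treated groups lay below every control array. The difference at 2500 ppm was -0.13 (SE 0.059, 95% interval -0.27 to -0.00093), with an unadjusted limma p of 0.0487 and an adjusted p of 0.308, the smallest among the members. This was the single member whose interval left out 0.

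Rpl21 (Entrez gene 79449), another large subunit protein, read 13.53, 13.55 and 13.61 in control, 13.49, 13.52 and 13.47 at 750 ppm, and 13.48, 13.48 and 13.42 at 2500 ppm. Every treated array was below every control array. The difference was -0.10 (SE 0.053) at 2500 ppm and -0.070 (SE 0.053) at 750 ppm, with adjusted limma p-values of 0.395 and 0.659.

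Rpl13a (Entrez gene 317646), known besides its place in the ribosome for silencing the translation of inflammatory messenger RNAs in myeloid cells, had the same order. Control arrays read 13.80, 13.79 and 13.75, 750 ppm arrays 13.68, 13.71 and 13.72, and 2500 ppm arrays 13.71, 13.72 and 13.62. The groups given the compound overlapped each other and not control. The difference was -0.097 (SE 0.054, adjusted limma p 0.417) at 2500 ppm and -0.077 (adjusted limma p 0.630) at 750 ppm.

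Rpl35a, a large subunit protein whose gene is among those mutated in Diamond-Blackfan anemia, read 13.60, 13.57 and 13.60 in control, 13.59, 13.60 and 13.49 at 750 ppm, and 13.50, 13.54 and 13.47 at 2500 ppm. Its 2500 ppm arrays lay below control, and 750 ppm replicate 3 lay within the 2500 ppm range. The difference at 2500 ppm was -0.086 (SE 0.056, adjusted limma p 0.484). Rpl14, also of the large subunit, differed by -0.083 (SE 0.062, adjusted limma p 0.544), from 13.07, 13.11 and 13.05 in control to 13.03, 13.05 and 12.91.

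In the small subunit, Rps15a read 13.94, 13.97 and 13.95 in control and 13.90, 13.91 and 13.81 at 2500 ppm. The difference was -0.078 (SE 0.054, adjusted limma p 0.512). Rpsa, the laminin receptor precursor that is also a 40S protein, read 13.78, 13.75 and 13.75 against 13.70, 13.74 and 13.62, a difference of -0.076 (SE 0.056, adjusted limma p 0.542). In both genes the 2500 ppm arrays lay below control. They were picked from the small subunit genes with separate groups after their values were seen, as was Rps23, which sits in the decoding centre and differed by -0.071 (SE 0.054, adjusted limma p 0.548).

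Rplp0 is the base of the stalk on the large subunit that recruits translation factors, and its transcript is often used as a reference in quantitative PCR. It read 13.93, 13.96 and 13.97 in control, 13.97, 13.96 and 13.97 at 750 ppm, and 13.92, 13.92 and 13.91 at 2500 ppm. The 2500 ppm arrays lay below all 6 others by a small margin. The difference from control was -0.036 (SE 0.049, adjusted limma p 0.756). Of the other stalk genes, Rplp1 appeared on a probe set with several symbols and Rplp2 on none of its own.

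At the other end, Rps6 (Entrez gene 29304), the 40S protein that S6 kinases phosphorylate downstream of mTOR, read 13.85, 13.83 and 13.80 in control and 13.83, 13.83 and 13.80 at 2500 ppm. The difference was -0.0058 (SE 0.049, adjusted limma p 0.966). Rpl41, the shortest ribosomal protein, differed by -0.0034 (SE 0.049, adjusted limma p 0.980). In both genes the groups overlapped.

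Rps29, with the brightest probe set, differed by -0.018 (SE 0.050, adjusted limma p 0.887). The 95% interval was -0.117 to 0.105 for Rps6, so it includes the median of the members, as does that for Rpl24.

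Over the 45 genes at 2500 ppm the 95% intervals reached a median of 0.12 to either side, and 44 of them held 0. The standard error that limma assigned, median 0.053, draws on the spread of all probe sets. Among the 38 bright members the median SD within a group was 0.033, against 0.11 over all tested probe sets. With a variance model that lets the spread follow the intensity, 10 of the 45 genes were lower at an unadjusted p under 0.05, beside 9.37% of all probe sets, and still 0 passed the adjusted threshold.

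**Figure D2:**
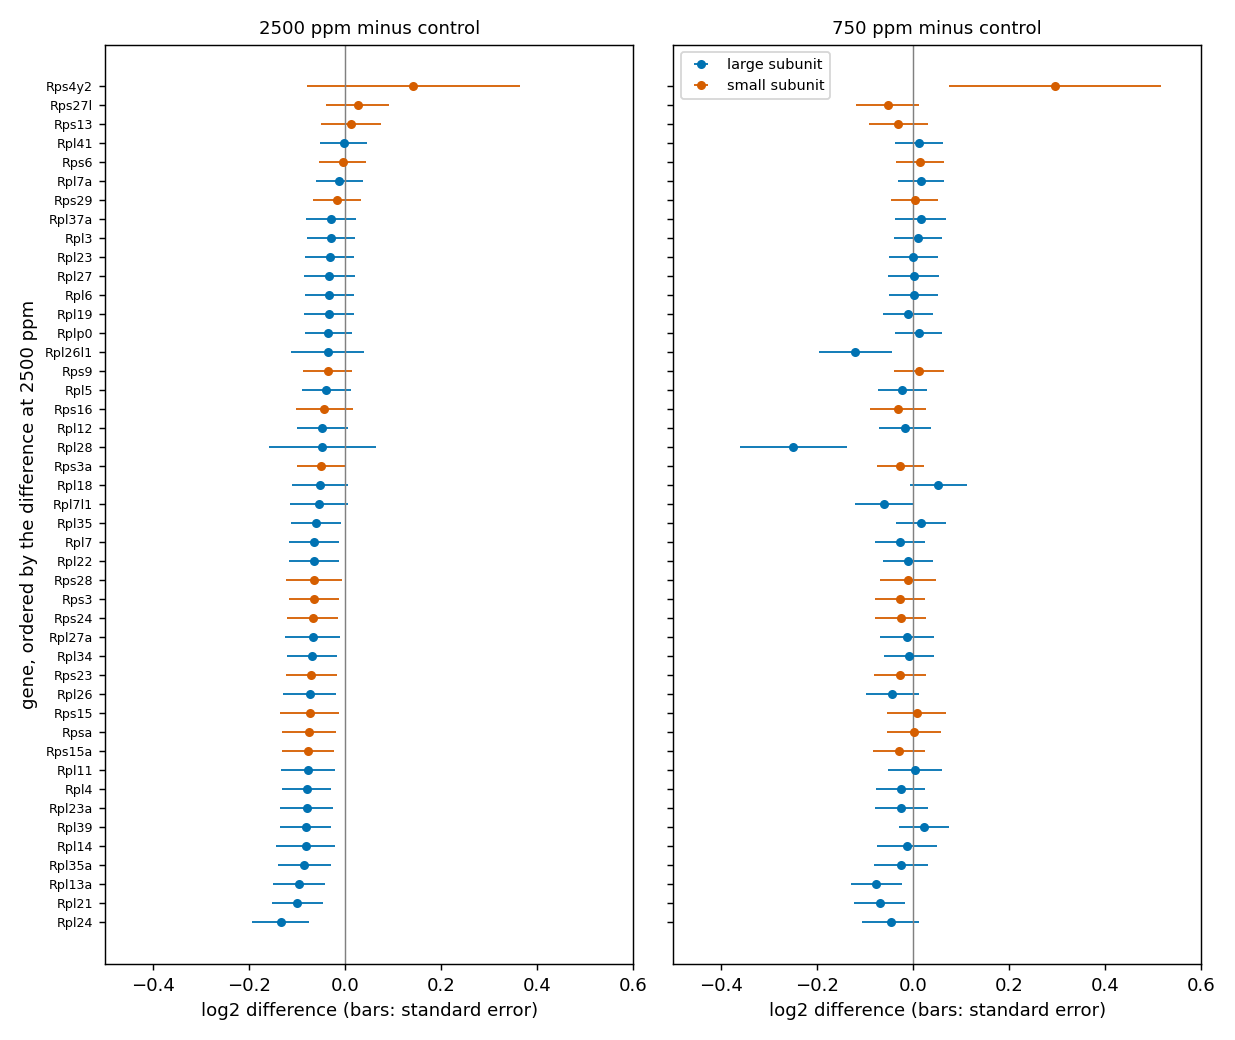
Log2 difference from control of each of the 45 tested ribosomal protein genes at 2500 ppm (left) and 750 ppm (right), ordered by the difference at 2500 ppm and coloured by subunit. Points are limma estimates with 3 arrays per group and bars are standard errors. At 2500 ppm 42 points lie left of 0, and at 750 ppm 28 do.

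The 3 members above 0 at 2500 ppm all had dim probe sets. Rps4y2 read 8.13, 7.17 and 7.59 in control and 7.47, 7.81 and 8.03 at 2500 ppm, a difference of 0.14 (SE 0.22, adjusted limma p 0.789). Rps27l, a paralog of Rps27 known as a p53 target, differed by 0.025 (SE 0.065, adjusted limma p 0.878), and Rps13 by 0.012 (SE 0.062, adjusted limma p 0.941). The groups overlapped in all 3. Among the 38 bright members, 38 lay below 0, beside 47.8% of all probe sets, with a median of -0.065. In 18 of them the groups were separate and lower, beside 13.4% of all probe sets.

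Other probe sets of similar brightness had a median near 0 and a wider range, though a range widens with the number of probe sets. The 373 other probe sets with a mean above 13, which were neither members nor shared with them, had a median difference of -0.0053 at 2500 ppm, with 204 below 0 and a range from -0.42 to 0.65. The 35 tested probe sets that carry a ribosomal protein symbol beside other symbols were all below 0. They had a median of -0.065 and a median level of 13.94. Their signal cannot be assigned to 1 gene, so they were not counted as members. By limma, 2 of the 35 were lower at an unadjusted p under 0.05, beside 9.12% of all probe sets, and 0 passed the adjusted threshold.

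At 750 ppm the members lay on both sides of control. The difference was below 0 in 28 of 45 genes, beside 49.1% of all probe sets, and above 0 in 17, beside 50.9%, with a median of -0.013. By limma, 0 genes passed the adjusted threshold, where 0.0092% of all probe sets did, and 0 were lower or higher at an unadjusted p under 0.05, beside 4.37% and 5.77%. The groups were separate and lower in 6 genes, Rpl4, Rpl13a, Rpl21, Rpl24, Rpl28 and Rps24, or 13.3%, beside 6.58% of all probe sets. They were separate and higher in 1 gene, Rpl7a, beside 7.61%.

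The sign of the 750 ppm median rested on 750 ppm replicate 3. Without it, the median was 0.0078 and 18 of 45 genes lay below 0. Without control replicate 2 or without 750 ppm replicate 2, 10 genes had separate lower groups, beside 11.8% of all probe sets in both settings. Centring each array on its median gave 11, beside 8.19%, with a median difference of -0.024.

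Rpl28, read on its dim probe set, had the smallest adjusted p at 750 ppm among the members, each read on its brightest probe set. Its control arrays read 7.43, 7.76 and 7.48, its 750 ppm arrays 7.41, 7.17 and 7.33, and its 2500 ppm arrays 7.53, 7.65 and 7.35. The 750 ppm group lay below control and the 2500 ppm group overlapped it. The difference at 750 ppm was -0.25 (SE 0.11, adjusted limma p 0.494) and at 2500 ppm -0.048 (SE 0.11).

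Rpl26l1, a paralog of Rpl26, differed by -0.12 (SE 0.076) at 750 ppm and Rpl7l1 by -0.061 (SE 0.061), with overlapping groups. The highest differences at 750 ppm were in Rps4y2 (0.30, SE 0.22) and Rpl18 (0.053, SE 0.059). Rpl7a, a large subunit protein that also hosts small nucleolar RNAs in its introns, read 13.99, 13.98 and 13.99 in control and 14.00, 13.99 and 14.01 at 750 ppm. That difference was 0.016 (SE 0.049, adjusted limma p 0.929), so the separation rests on a very narrow control group.

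Both comparisons above use the same 3 control arrays. Between the treated groups, 40 of 45 genes were lower at 2500 ppm than at 750 ppm, beside 52.1% of all probe sets, and 5 were higher, beside 47.9%, with a median of -0.041. By limma, 0 passed the adjusted threshold (0.322% of all probe sets did) and 0 passed an unadjusted p of 0.05, beside 7.33% lower and 5.25% higher. In 9 genes (Rpl3, Rpl4, Rpl6, Rpl7a, Rpl18, Rpl34, Rpl35, Rpl39 and Rplp0) the groups were separate and lower, beside 9.52% of all probe sets, and in 0 genes separate and higher, beside 7.88%. That count became 28 without 750 ppm replicate 3 (beside 21.9% of all probe sets in that setting) and 20 without 2500 ppm replicate 2 (14.7%). It was 5 with each array centred on its median (8.81%) and 3 after a second quantile normalization (7.42%).

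Rpl39, a short protein of the exit tunnel, had the smallest adjusted p in this comparison. It read 8.49, 8.52 and 8.56 in control, 8.59, 8.54 and 8.51 at 750 ppm, and 8.45, 8.42 and 8.45 at 2500 ppm. The 2500 ppm arrays lay below all 6 others. The difference from 750 ppm was -0.10 (SE 0.053, adjusted limma p 0.455) and from control -0.083 (adjusted limma p 0.477). Rpl18 differed from 750 ppm by -0.11 (SE 0.059, adjusted limma p 0.499), and Rps15 by -0.081 (SE 0.061, adjusted limma p 0.625).

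The bright members were also compared array by array. For each of the 38 genes, the mean over 9 arrays was subtracted and the deviations were averaged per array. Control arrays stood at 0.031, 0.024 and 0.014, 750 ppm arrays at 0.030, 0.027 and -0.022, and 2500 ppm arrays at -0.028, -0.0036 and -0.071. All 2500 ppm arrays lay below all control arrays, and 750 ppm replicate 3 lay between 2500 ppm replicates 1 and 2. The group means were 0.023 ± 0.0083 in control, 0.011 ± 0.029 at 750 ppm and -0.034 ± 0.034 at 2500 ppm (SD, n = 3 each).

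The lowest of the 9 arrays was 2500 ppm replicate 3 in 31 of the 38 genes, 2500 ppm replicate 1 in 4, 750 ppm replicate 3 in 2 and control replicate 3 in 1. On 2500 ppm replicate 3, 37 of the 38 genes were below their own mean, against 34 on replicate 1 and 26 on replicate 2 of that group. On 750 ppm replicate 3 it was 29 genes, and on replicates 1 and 2 of that group 5 and 3. On the control arrays it was 4, 5 and 10.

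**Figure D3:**
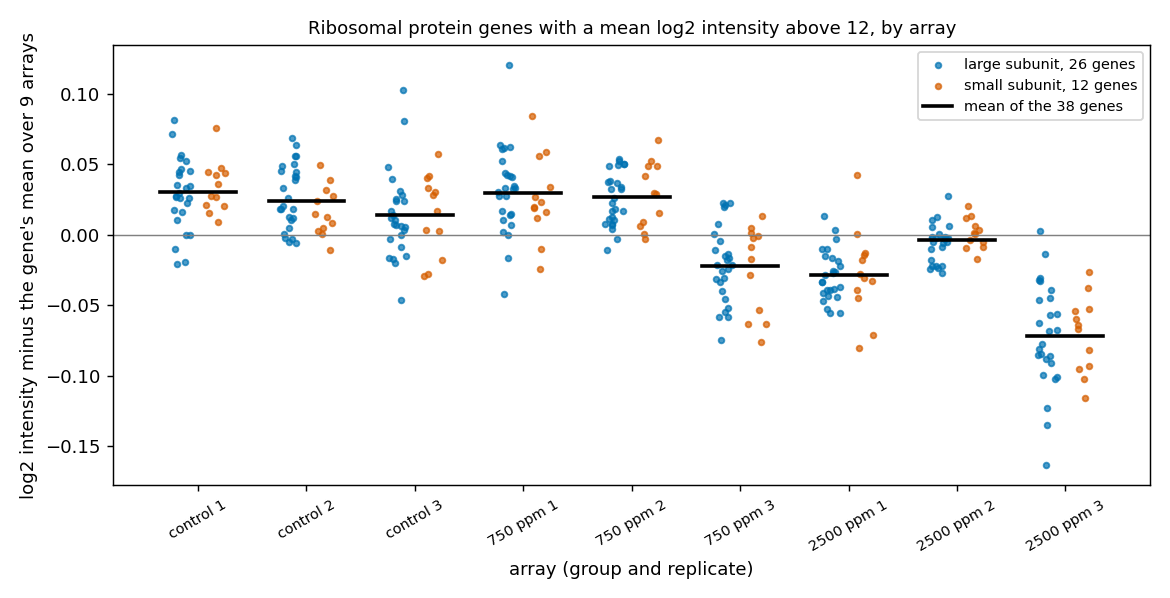
Deviation of each of the 38 ribosomal protein genes with a mean log2 intensity above 12 from its own mean over 9 arrays, for each array, with large and small subunit genes in separate colours. The black line is the mean of the 38 genes. It lies at 0.014 to 0.031 on control arrays, at -0.022 on 750 ppm replicate 3 and at -0.071 on 2500 ppm replicate 3.

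How closely each gene followed the others is given as a description. Over the 9 arrays, the Pearson correlation of a gene with the mean of the other 37 had a median of 0.84, and 35 of 38 genes were above 0.5. Rpsa was highest at 0.98 and Rpl7a lowest at 0.19. The points share arrays and the same normalization, so these values hold the group differences and any array effect together.

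At 2500 ppm, large and small subunit genes had similar medians. Of the large subunit genes, 30 of 30 were below control with a median of -0.058, beside 47.8% of all probe sets. Of the small subunit genes, 12 of 15 were below control, with a median of -0.051. The 3 exceptions are the dim probe sets of Rps4y2, Rps27l and Rps13. Separate lower groups were found in 14 of the 30 genes (46.7%) and 5 of the 15 (33.3%), beside 13.4% of all probe sets. Among bright members the medians were -0.063 for 26 large and -0.066 for 12 small subunit genes. At 750 ppm, 19 of 30 and 9 of 15 genes were below control, beside 49.1% of all probe sets, with medians of -0.012 and -0.026.

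Per array, the mean deviation of the 26 bright large subunit genes was 0.029, 0.028 and 0.014 in control, 0.031, 0.026 and -0.021 at 750 ppm, and -0.029, -0.0057 and -0.072 at 2500 ppm. For the 12 bright small subunit genes it was 0.034, 0.017 and 0.015, then 0.026, 0.029 and -0.024, then -0.027, 0.0012 and -0.071. The arrays stood in nearly the same order in both subunits.

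The difference between them, large minus small, ran from -0.0069 to 0.010 over the 9 arrays. Its group means were 0.0014 ± 0.0081, 0.0017 ± 0.0044 and -0.0030 ± 0.0034 (SD, n = 3 each) for control, 750 ppm and 2500 ppm. Over all 48 genes the group means of large minus small were 0.0097 ± 0.029, -0.011 ± 0.0072 and 0.0015 ± 0.0091. The differences between groups, -0.0082 for 2500 ppm minus control, -0.021 for 750 ppm minus control and 0.013 for 2500 ppm minus 750 ppm, can be set beside an SD between arrays of a group of 0.018, pooled over the groups. The value for 750 ppm minus control was larger than that SD and the others were smaller, and none was tested. Among the bright members, large minus small for 750 ppm minus control was 0.00029. The 48 genes include dim probe sets such as that of Rps4y2, of the small subunit, which differed by 0.30 (SE 0.22) at 750 ppm. With 3 arrays against 3, an exact permutation test cannot give a p below 0.1.

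**Figure D4:**
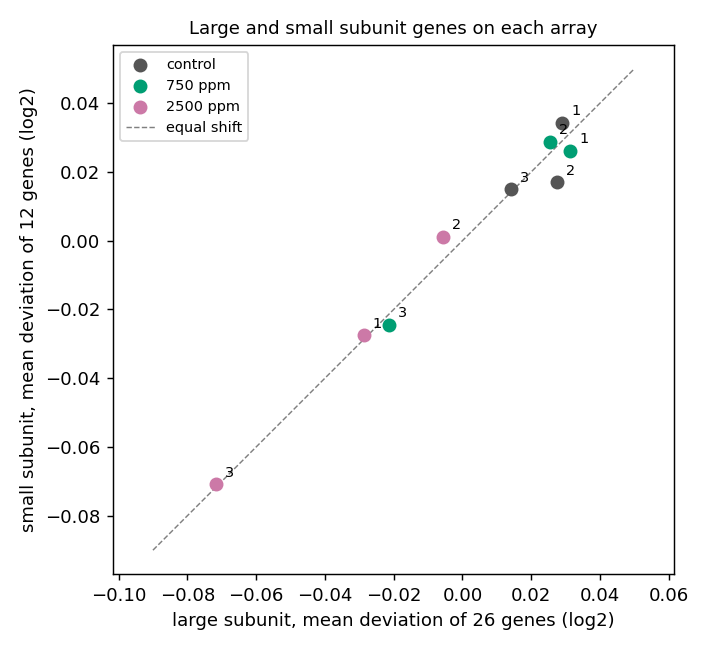
Mean deviation of the 26 bright large subunit genes (x axis, log2) against that of the 12 bright small subunit genes (y axis, log2) on each array, with the replicate number beside each point and the line of equal shift dashed. The arrays lie along the line, from -0.072 and -0.071 on 2500 ppm replicate 3 to about 0.03 on both axes.

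Genes with further probe sets gave a check within the gene. Rpsa has 3, at mean levels of 13.74, 13.66 and 12.88, and their differences at 2500 ppm were -0.076, -0.075 and -0.091, each with the 2500 ppm arrays below control. At 750 ppm the 3 differences were 0.0016, -0.061 and -0.13, so the first did not share the direction of the others. The third had an unadjusted limma p of 0.033 and an adjusted p of 0.455 at 750 ppm. Rpl7 was lower by both of its probe sets at 2500 ppm, with values of -0.065 (level near 13.9) and -0.14 (level near 8.7, SE 0.076, adjusted limma p 0.411).

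Rpl3, a core protein next to the catalytic centre, gave -0.031 and -0.067, the second by a probe set with the suffix _x_at. Rpl7l1, a Rpl7 paralog with a role in ribosome assembly, gave -0.055 and -0.068. Rps24 gave -0.068 by its bright probe set and 0.14 (SE 0.097, adjusted limma p 0.511) by a dim one at a mean of 7.03. That dim probe set read 0.21 at 750 ppm. Rpl14 has a further probe set at 5.03, under the filter. Of the paralog pairs, Rpl22 differed by -0.065 (SE 0.052, adjusted limma p 0.574) and its partner Rpl22l1 had no probe set of its own.

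Other genes of translation were set beside the members, from 8 lists. In each list, 0 genes passed the adjusted threshold by limma in any of the 3 comparisons. Counts at an unadjusted p under 0.05 at 2500 ppm are to be read beside 9.12% lower and 6.89% higher among all probe sets. The 73 mitochondrial ribosomal protein genes, whose products make the separate ribosome of mitochondria, had a median of 0.028 at 2500 ppm, with 27 lower and 46 higher, and 3 were lower at an unadjusted p under 0.05. At 750 ppm their median was 0.055. Mrpl39 (-0.17, SE 0.066, adjusted limma p 0.240) and Mrpl20 (-0.13, SE 0.055, adjusted limma p 0.287) had the smallest p at 2500 ppm.

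The 61 genes of ribosome biogenesis, which process ribosomal RNA and assemble the subunits, had a median of -0.040 at 2500 ppm, with 39 lower and 22 higher. By limma 3 were lower at an unadjusted p under 0.05, among them Utp20 (-0.26, SE 0.083, adjusted p 0.173) and Utp18 (-0.23, SE 0.091, adjusted p 0.264), both of the small subunit processome. The 14 genes of RNA polymerase I and its factors, which transcribe ribosomal RNA, had a median of -0.027, with 9 lower and 5 higher and 2 lower at that unadjusted p. They were Taf1d (-0.40, SE 0.080, adjusted limma p 0.0634) and Polr1f (-0.21, SE 0.081, adjusted limma p 0.243). At 750 ppm the medians of these 2 lists were -0.014 and -0.0029.

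The 15 other genes with TOP messenger RNAs had a median of -0.022, with 10 lower and 5 higher, and 1 was higher at an unadjusted p under 0.05. That gene was Vim (0.59, SE 0.16, adjusted limma p 0.134), which encodes the intermediate filament vimentin of mesenchymal cells and radial glia. Vim is also among the astrocyte and radial glia markers below. The TOP list shares Eif3f, Eif3h, Eif4a2 and Eif4b with the initiation list. It shares Eef1a1, Eef1b2, Eef1d, Eef1g and Eef2 with the elongation and termination list. Hnrnpa1, a splicing factor, read -0.12 (SE 0.060, adjusted limma p 0.389). The 33 initiation factor genes had a median of 0.026, with 14 lower and 19 higher. The 2 with the smallest p were higher at an unadjusted p under 0.05, Eif6 (0.18, SE 0.073, adjusted limma p 0.267), which keeps free 60S subunits apart from 40S, and Eif2b1 (0.17, SE 0.073, adjusted limma p 0.293).

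The 13 elongation and termination factor genes had a median of 0.0025, with 6 lower and 7 higher and 0 at an unadjusted limma p under 0.05. Gspt1, a release factor, read 0.15 (SE 0.091, adjusted limma p 0.465) and Eef1d 0.11 (SE 0.060, adjusted limma p 0.419). The 21 genes of the aminoacyl-tRNA synthetases, which load amino acids onto tRNA, and of Aimp1 and Aimp2, scaffold proteins of their complex, had the highest median, 0.093, with 3 lower and 18 higher, and 1 was higher at an unadjusted limma p under 0.05, Farsb (0.15, SE 0.066, adjusted p 0.306). Mars1 read 0.22 (SE 0.11, adjusted limma p 0.355). The members and this list thus lay on opposite sides of 0, a difference between lists that was not tested.

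The 32 regulators of translation, which include mTOR pathway and S6 kinase genes, had a median of -0.023, with 22 lower and 10 higher. By limma 4 were lower and 1 higher at an unadjusted p under 0.05. Rps6ka2 (-0.30, SE 0.082, adjusted limma p 0.133) and Rps6ka5 (-0.39, SE 0.13, adjusted limma p 0.195) encode RSK and MSK kinases that act downstream of ERK. At 750 ppm the medians were 0.0038 for other TOP genes, 0.023 for initiation, 0.021 for elongation and termination, 0.067 for synthetases and -0.027 for regulators.

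**Figure D5:**
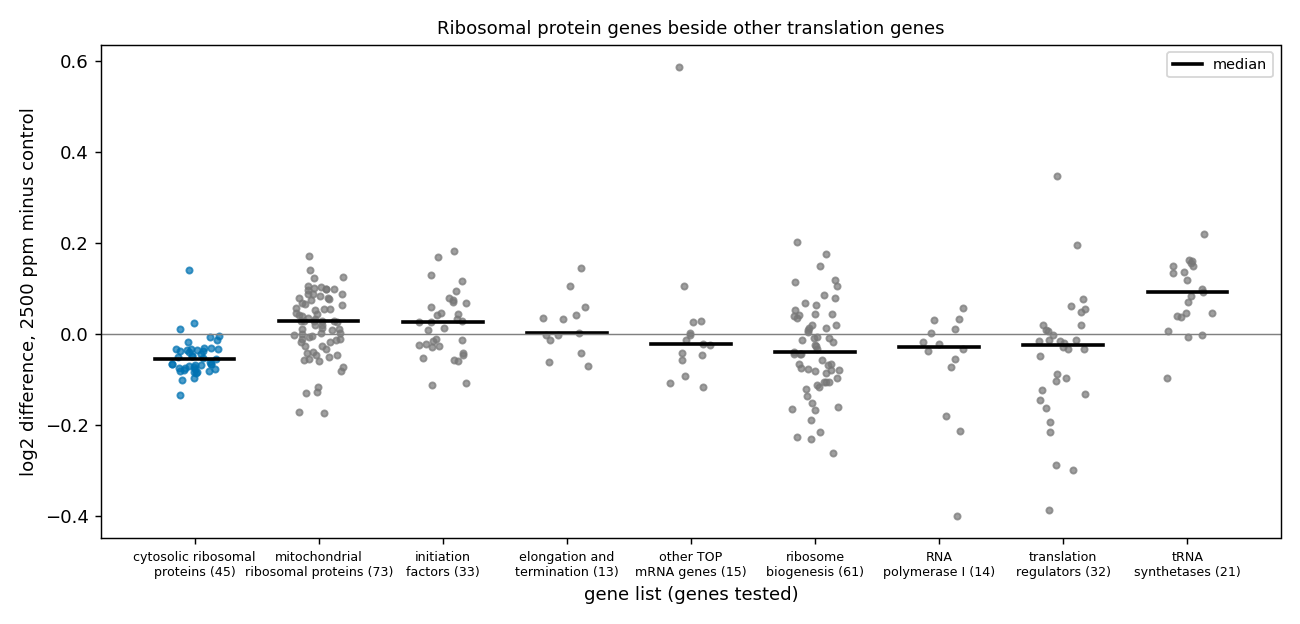
Log2 difference at 2500 ppm minus control (y axis) of each tested gene in the cytosolic ribosomal protein set (blue) and in 8 other lists of translation genes (grey), with the median as a black line. Some of the 8 lists share genes. The cytosolic ribosomal protein genes have the lowest median of the 9 sets, -0.055, and a narrow spread, and the aminoacyl-tRNA synthetases, shown with the scaffold genes Aimp1 and Aimp2, have the highest, 0.093.

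Markers of other tissues moved over the same arrays. The mean deviation of the 16 striatal neuron markers on the array, 15 of them past the filter, was 0.64, 0.27 and 0.40 on control arrays, 0.54, 0.48 and -0.78 at 750 ppm, and -0.92, -0.070 and -0.56 at 2500 ppm. As with the bright ribosomal protein genes, 750 ppm replicate 3 and the 2500 ppm arrays were below 0 and the remaining arrays above. The order of the arrays differed. The bright ribosomal protein genes were lowest on 2500 ppm replicate 3 (-0.071) and the striatal markers on 2500 ppm replicate 1 (-0.92). The match in sign was not tested. The mean level of these markers was 9.48 to 9.86 in control, 8.43 to 9.75 at 750 ppm and 8.30 to 9.14 at 2500 ppm. All 15 tested markers were lower at 2500 ppm, beside 47.8% of all probe sets, with a median of -1.10. The adjusted limma threshold was passed by 2, beside 0.686% of all probe sets. At 750 ppm the median was -0.43, with 13 of the 15 lower, beside 49.1% of all probe sets. None passed the threshold there, where 0.0092% of all probe sets did. At an unadjusted limma p under 0.05, 4 were lower, beside 4.37% of all probe sets.

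At 2500 ppm, 9 of 10 choroid plexus markers were higher (median 0.50, 1 past the threshold), as were 19 of 19 meningeal fibroblast markers (0.85, 2 past it). So were 14 of 14 endothelial markers (0.33), 14 of 14 microglia and macrophage markers (0.14) and 3 of 3 red blood cell markers (0.61, 2 past it). Of all probe sets, 52.2% were higher at 2500 ppm, and 0.686% passed the threshold in either direction. Over all markers on the array, filtered or not, the mean choroid plexus level was 6.62 to 6.81 in control and 7.37 to 8.24 at 2500 ppm, and the meningeal level 8.18 to 9.05 and 9.24 to 9.58. Medians were 0.16 for 14 cortical neuron markers, 0.0024 for 15 astrocyte and radial glia markers, 0.070 for 9 oligodendrocyte lineage markers and -0.029 for 20 cycling cell markers, and 1 hindbrain marker could be tested (0.013). At 750 ppm, where the median of the members was -0.013, 19 of 19 meningeal markers were also higher, with a median of 1.18 that was above the one at 2500 ppm. The medians there were 0.35 for endothelial markers (14 of 14 higher), 0.21 for microglia and macrophage markers (12 of 14 higher) and 0.43 for red blood cell markers (3 of 3 higher). The choroid plexus markers had a median of -0.0040 with 5 of 10 higher. Of all probe sets, 50.9% were higher at 750 ppm. The medians of the meningeal, endothelial, microglial and red blood cell markers were above 0 in both treated groups, which are compared with the same control arrays. At 750 ppm the other medians were -0.027 for cortical neuron, 0.065 for astrocyte and radial glia, -0.19 for oligodendrocyte lineage and -0.039 for cycling cell markers. Between the treated groups, 14 of 15 striatal markers were lower at 2500 ppm (median -0.68, 1 past the threshold). All 10 choroid plexus markers were higher (0.54, 1 past it), as were 10 of 14 cortical neuron markers (0.13, 1 past it). So were 9 of 9 oligodendrocyte lineage markers (0.19), and 17 of 19 meningeal markers were lower (-0.19). The other lists had medians from -0.11 to 0.087. Of all probe sets, 52.1% were lower, 47.9% higher and 0.322% past the threshold. The part of tissue content in the lower values of the ribosomal protein genes was not tested.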

How the data were processed

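The authors deposited log2 RMA intensities for 31099 probe sets on 9 arrays, made with the affy package per the submitters' processing notes, with no version named. RMA subtracts background, gives every array the same intensity distribution and combines the probes of a probe set, so a shift in all transcripts at once is removed. Whether differences among the brightest probe sets are compressed was not tested. Per the labels' protocols, 100 ng of RNA per pup was amplified with 16 h of in vitro transcription.

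After removal of 57 control probe sets, the 30% with the lowest mean (under 6.35, 9313 probe sets) were left out. The other 21729 were fitted with 1 mean per group over all 9 arrays in limma 3.58.1 (R 4.3.3, statmod 1.5.0), with empirical Bayes variances (prior degrees of freedom 3.25) and two-sided p-values adjusted by Benjamini-Hochberg over all of them, at a threshold of 0.05. P-values rest on the variation among single pups from separate litters, and the number of arrays limits the precision. Platform annotation gave 1 symbol to 20826 probe sets, several to 436 and none to 9780. The 36 probe sets with several symbols, at least 1 of them a ribosomal protein gene, were kept apart. The other symbols were not restricted to copies of that gene. The rule also left out 14 S6 kinase and 2 pseudogene probe sets. Of the member probe sets, 2 have the suffix _x_at and 1 _s_at, which mark probes that can match other transcripts.

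Named genes were those past the threshold, the 5 lowest and 5 highest members per comparison, stalk genes, Rps6, paralog pairs, the brightest and dimmest, and in each other list up to 2 by smallest p where none passed. Rps15a, Rpsa and Rps23 were added after their values were seen. The members, the 8 translation lists and the 11 marker lists were chosen with earlier results of these data known. The fit was tested on simulated data. Alternatives were other filters, scalings, variance models, array weights, a replicate block, other probe set choices and leaving out each array.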

Additional observations from a re-analysis of the deposited data

How the results depend on the processing

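In all 25 alternatives, 0 members passed the adjusted limma threshold in any comparison. The smallest adjusted p was 0.114 at 2500 ppm (array weights), 0.234 at 750 ppm and 0.192 between the treated groups. Without leaving out single arrays, the median difference over the members ran from -0.065 to -0.045 at 2500 ppm, from -0.024 to 0.0053 at 750 ppm and from -0.053 to -0.028 between the treated groups. The value of 0.0053 came from leaving out control replicate 3 and 750 ppm replicate 3 together. With single arrays left out, the ranges were -0.078 to -0.039, -0.024 to 0.0078 and -0.053 to -0.028. At 2500 ppm the count of genes lower at an unadjusted p under 0.05 was 1 as reported, 10 with a trended and robust variance model and 5 with array weights (beside 9.37% and 13.3% of all probe sets), and 0 in several others, among them cyclic loess. It was 3 of 80 with the probe sets shared with other symbols added, beside 9.12% of all probe sets. There 36 of 80 had separate lower groups, beside 13.4% of all probe sets.

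The large minus small difference at 750 ppm, -0.021 over all members, was 0.00029 among members above a mean of 12, where the dim probe sets are left out. With single arrays left out it ran from -0.022 to 0.0071 at 2500 ppm, from -0.035 to -0.0055 at 750 ppm and from 0.0079 to 0.017 between the treated groups. The alternatives with 2 arrays left out together, with members above 12 and with shared probe sets were chosen after seeing the data. Keeping Rps19bp1 was not run, since it has no probe set of its own.

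With the replicate number as a block, the medians were -0.055, -0.013 and -0.041, the smallest adjusted p-values 0.345, 0.506 and 0.501, and 0 genes passed. The numbers do not pair the pups, since correlations of deviations between arrays of the same number ran from -0.21 to 0.31.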

Other observations

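One of the array's control probe sets reads 5S ribosomal RNA, the small RNA of the large subunit that RNA polymerase III makes, and it was not part of any fit. It read 8.29, 7.84 and 8.34 on the control arrays, 7.45, 7.65 and 6.73 at 750 ppm, and 7.56, 7.76 and 7.56 at 2500 ppm. All 6 treated arrays lay below all 3 control arrays. The labelling starts from the poly(A) tail, which 5S ribosomal RNA lacks, and whether the value follows its amount was not tested. It was set aside with the other array controls before the fit, and the difference was not tested.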
